A study of Homo sapiens with 6 samples.

Results

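HSF1, the transcription factor of the heat shock response, and 9 of its target genes are described here across the tamoxifen-resistant subline T47D-TR and its parent line T47D. The targets are HSPA1A, HSPA1B, HSPA8, HSPH1, HSP90AA1, HSPB1, HSPE1, DNAJB1 and BAG3. The genes were taken by name from the deposited count table, and all 10 were found among its 20503 genes. They were selected on the fold changes of this same comparison, T47D-TR over T47D, in an earlier reading of these counts, so their levels are given as a description and without a test. T47D-TR was derived from T47D, a human breast cancer line that the labels call ER-positive, and lived in medium with 1 µM 4-hydroxytamoxifen, into which the body turns the antioestrogen tamoxifen. T47D is the parent, cultured in DMEM with serum and with no drug named. Resistance and drug came together in these samples and cannot be told apart. Each group had 3 libraries of poly(A)-selected RNA, with 17199315 to 19867230 counts in T47D-TR and 18315735 to 19305594 in T47D. Nothing in the labels says that these came from separate cultures, so p-values cover only the spread of these libraries, possibly technical.

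Cells hold HSF1 in an inactive form together with chaperones. When unfolded proteins occupy the chaperones, HSF1 is released, forms trimers and binds heat shock elements, repeats of the unit nGAAn in alternating orientation, in the promoters of chaperone genes. The proteins made refold or clear damaged proteins and bind HSF1 again, which closes the loop. Tumour cells often depend on this system, and HSP90 is also the chaperone that holds unliganded steroid receptors, the oestrogen receptor among them.

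The promoters are shown because they hold the letters that HSF1 is known to bind. The 9 genes are known HSF1 targets, so the presence of these letters is a description too. RefSeq entries of GRCh38.p14 (250 bases before to 50 after each start) were found for 9 of the 10 genes, in 12 windows. The letters searched were 2 facing units, TTCNNGAA or GAANNTTC. Each reads the same on both strands, and the 2 forms overlap in a run of 3 units, which is either form followed by one more unit (NNTTC after TTCNNGAA, NNGAA after GAANNTTC). The 2-unit letters stood in the windows of 6 of the 9 genes (66.7%), against 16.2% of 27305 genes with a promoter entry. Runs of 3 units stood in 2 of the 9, HSPA8 and HSP90AA1, against 0.608% of all these genes. Bases of a match are in capitals in the stretches below, which end at the base before the start and are written 5′ to 3′ on the strand of the gene.
HSPA1A, chr6:31815393-31815542, plus strand: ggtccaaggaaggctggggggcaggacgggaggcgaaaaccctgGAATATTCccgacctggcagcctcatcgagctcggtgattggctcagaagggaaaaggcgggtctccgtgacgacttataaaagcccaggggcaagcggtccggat
HSPA1B, chr6:31827588-31827737, plus strand: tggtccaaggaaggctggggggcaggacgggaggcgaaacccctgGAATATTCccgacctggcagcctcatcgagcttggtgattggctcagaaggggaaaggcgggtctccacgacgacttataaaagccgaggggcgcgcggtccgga
HSPA8, chr11:123062137-123062386, minus strand: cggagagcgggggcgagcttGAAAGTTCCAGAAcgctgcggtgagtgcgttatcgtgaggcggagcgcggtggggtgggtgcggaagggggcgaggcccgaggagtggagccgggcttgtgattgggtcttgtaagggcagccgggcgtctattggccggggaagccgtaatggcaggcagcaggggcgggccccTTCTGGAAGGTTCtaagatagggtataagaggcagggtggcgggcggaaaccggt
HSP90AA1, chr14:102087045-102087164, minus strand: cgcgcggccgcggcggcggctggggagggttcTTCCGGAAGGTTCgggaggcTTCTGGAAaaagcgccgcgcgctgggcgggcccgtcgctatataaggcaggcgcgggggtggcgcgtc
DNAJB1, chr19:14518398-14518517, minus strand: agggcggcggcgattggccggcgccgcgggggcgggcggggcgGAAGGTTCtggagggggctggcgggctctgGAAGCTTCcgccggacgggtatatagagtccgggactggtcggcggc
For HSPB1 the stretch shown lies farther up, from 210 to 150 bases before the start.
HSPB1, chr7:76302463-76302523, plus strand: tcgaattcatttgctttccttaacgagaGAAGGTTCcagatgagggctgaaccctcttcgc
In HSPA1A and HSPA1B the match is the same 8 letters, beginning 106 and 105 bases before the start, and the 150 bases shown are 93.4% identical between the genes. HSPA8 has a run of 3 units at each end of its stretch, beginning 230 and 55 bases before the start. HSP90AA1 has 1 run, 88 bases before the start, followed by a 2-unit match. DNAJB1 has 2 such matches before the one of its 3 RefSeq starts that is shown, beginning 77 and 47 bases before it. The windows of HSPH1, HSPE1 and BAG3 did not hold these letters, which says only that they are not in these 300 bases. A match is a description of letters and does not show that a factor binds there.

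**Figure D1:**
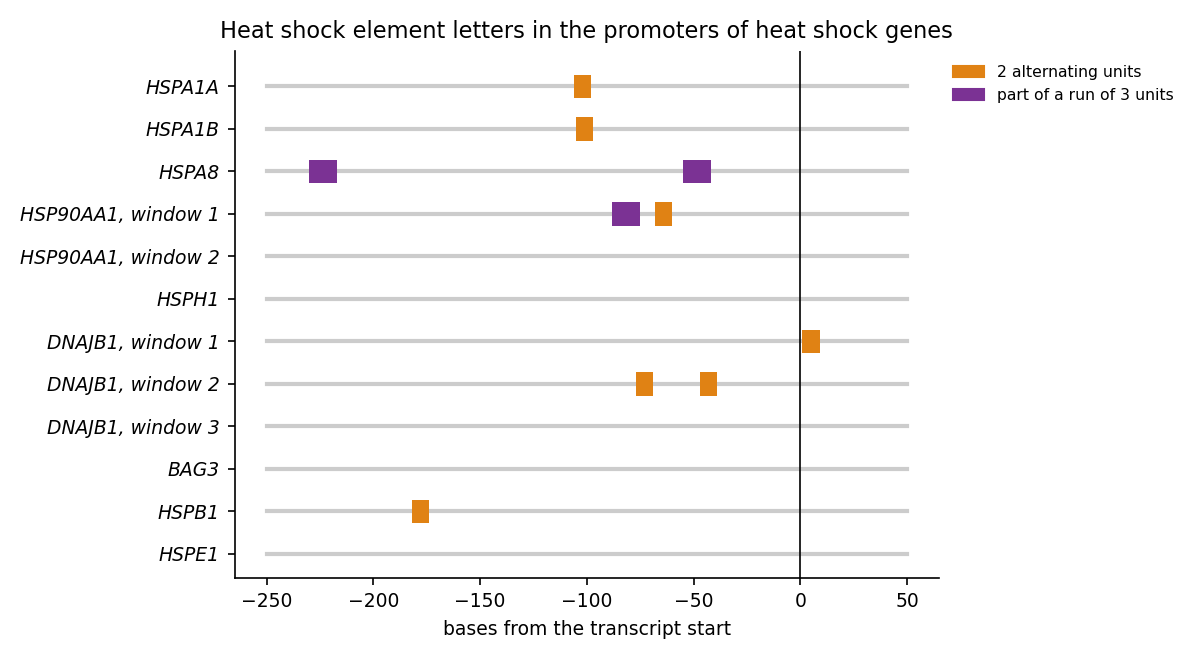
Matches to the heat shock element letters in the RefSeq promoter windows of 9 heat shock genes, with bases from the transcript start on the horizontal axis and 1 row per window. Orange bars are 2 alternating units and purple bars are part of a run of 3; HSPA8 has a run at 230 and at 55 bases before the start, and HSPH1, BAG3 and HSPE1 have no bar.

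The label of the cells was checked against marker genes. ESR1, which encodes oestrogen receptor alpha, had 2, 4 and 3 counts in the T47D-TR libraries and 3, 0 and 2 in the T47D libraries, so the data go against the label of an ER-positive line in both groups. Levels in CPM are counts scaled by TMM to a common library size. The summed level of 8 luminal epithelial markers was 2405 to 2816 CPM in T47D-TR and 2045 to 2126 CPM in T47D, almost all of it the keratin genes KRT8, KRT18 and KRT19. Of the others, FOXA1 was higher (10.7 CPM in T47D-TR and 5.64 CPM in T47D). CDH1 was higher too, but low in both groups (5.5 CPM in T47D-TR and 2.12 CPM in T47D). EPCAM was lower (14.7 CPM in T47D-TR and 38.6 CPM in T47D). GATA3 was lower and nearly absent (0.625 CPM in T47D-TR and 1.23 CPM in T47D). With ESR1, GATA3 and CDH1 this low, these markers do not settle the identity of the line, which was not tested further. The lists for other cell types did not move as lists, and the larger sum of each in T47D-TR rested on 1 gene. The 8 fibroblast markers summed to 268 to 310.1 CPM in T47D-TR and 131 to 137 CPM in T47D, of which FBLN1 made 269 CPM in T47D-TR and 96.6 CPM in T47D. LUM (0.253 CPM in T47D-TR and 13.9 CPM in T47D) and PDGFRB were lower, COL1A1 was not called, and COL1A2, COL3A1 and DCN had 22, 37 and 19 counts in T47D-TR replicate 3 and 0 to 4 in the other libraries. The 4 immune markers found of 7 summed to 57.3 to 75.4 CPM in T47D-TR and 23.7 to 27.1 CPM in T47D, nearly all CD68, while CD8A was lower and the leukocyte marker PTPRC was at 1, 0 and 1 counts in T47D-TR and 2, 2 and 2 in T47D. The 2 endothelial markers found of 4 summed to 23.5 to 31.1 CPM in T47D-TR and 0.665 to 0.804 CPM in T47D, nearly all PECAM1, with VWF at 1, 0 and 4 counts in T47D-TR and 0, 0 and 3 in T47D. T47D-TR replicate 3 stood a little apart, with Pearson's r across genes of 0.990 to 0.991 with the other T47D-TR libraries, which correlated at 0.994. The part of these differences in the results on heat shock genes was not tested.

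All 10 genes were lower in T47D-TR. The inducible HSP70 genes were lower by about an order of magnitude, the constitutive HSP70 gene HSPA8 by 2.69-fold and the exchange factor gene HSPH1 by 2.05-fold, and the other 6 genes by 1.36-fold to 1.75-fold. The median log2 fold change of the 10 genes was -0.76, T47D-TR over T47D, against 0.00 for all 15961 genes that passed the filter on low counts, which all 10 did. Every T47D-TR library lay under every T47D library for all 10 genes, as it did for 33.8% of tested genes (the other way for 34.6%), and edgeR called all 10 lower at an adjusted p under 0.05, as it did 30.5% of tested genes (63% in either direction). Nothing is read from these counts, because the genes were chosen with this comparison known. In RNA of whole cultures, fewer cells that express a gene and less RNA per cell cannot be told apart. Together the 10 genes took 0.563% ± 0.0339 of all counts in T47D-TR and 1.2% ± 0.0233 in T47D (SD, n = 3 each).

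**Figure D2:**
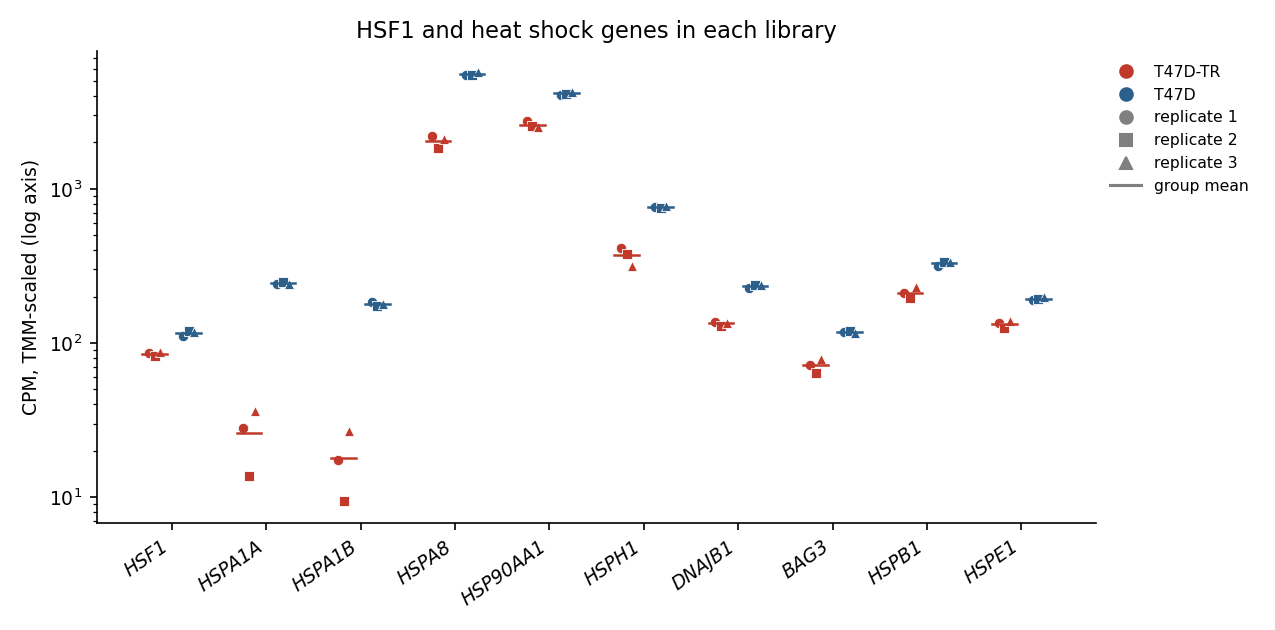
Level of each gene in each library, in TMM-scaled CPM on a log axis; red points left are T47D-TR and blue points right are T47D, symbols mark the replicate and lines the group mean. The groups do not overlap for any of the 10 genes, and the widest spread is that of HSPA1A and HSPA1B in T47D-TR, at 13.7 to 36.2 and 9.43 to 26.8 CPM.

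HSF1, the sensor and activator itself (chromosome 8, 144291604 to 144314720, GRCh38), differed least of the 10. It had 86.1, 82.1 and 87.1 CPM in the T47D-TR libraries and 111, 119 and 117 CPM in the T47D libraries. The T47D-TR libraries were close together and under all T47D libraries. Its log2 fold change was -0.44 ± 0.04 (SE), a 1.36-fold lower level. The log2 fold changes of the 9 target genes were all larger in size than this.

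HSPA1A (chromosome 6, 31815543 to 31817942) and HSPA1B (chromosome 6, 31827738 to 31830254) encode the stress-inducible cytosolic HSP70, which is scarce in most resting cells and is made within minutes of heat shock. HSPA1A had 28.0, 13.7 and 36.2 CPM in the T47D-TR libraries and 241, 248 and 241 CPM in the T47D libraries, and its log2 fold change was -3.24 ± 0.42. HSPA1B had 17.4, 9.43 and 26.8 CPM in T47D-TR and 185, 175 and 180 CPM in T47D, with a log2 fold change of -3.35 ± 0.43. For both genes T47D-TR replicate 2 was lowest and replicate 3 highest, while the T47D libraries lay within a few percent of each other. Of 15961 tested genes, 81 had a log2 fold change at or below that of HSPA1B and 87 at or below that of HSPA1A. The coefficient of variation of HSPA1A and HSPA1B was 43.8% and 48.7% in T47D-TR, against 1.82% and 2.7% in T47D. Over the 9836 tested genes with a mean of at least 10 CPM, the median was 5.68% in T47D-TR and 3.66% in T47D, and 99.8% of these genes varied less than HSPA1A in T47D-TR.

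The reads of this pair cannot be divided with certainty. Of all 50-base windows of the longest HSPA1A transcript in GENCODE release 29, 72.6% also occurred in HSPA1B. How the authors treated reads with several matches is not stated. HSPA1A took 61.8%, 59.3% and 57.5% of the counts of the pair in the T47D-TR libraries and 56.6%, 58.7% and 57.2% in the T47D libraries, so the groups overlapped. The sum of the pair, which does not depend on how reads were divided between them, was 45.4, 23.2 and 63.1 CPM in T47D-TR and 426, 423 and 421 CPM in T47D.

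HSPA8 (chromosome 11, 123057489 to 123062462) encodes HSC70, the abundant constitutive member of the same family. It had 2207, 1842 and 2116 CPM in the T47D-TR libraries and 5434, 5432 and 5700.3 CPM in the T47D libraries. The lowest T47D library stood at more than double the highest T47D-TR library. Its log2 fold change was -1.43 ± 0.08. The counts of HSPA1A and HSPA1B together came to 2.06, 1.26 and 2.98 per 100 HSPA8 counts in T47D-TR and 7.83, 7.79 and 7.38 in T47D. Of the windows of the HSPA8 transcript, 15.4% occurred in other GENCODE genes, most often the pseudogene HSPA8P1, so a small part of its reads may be placed elsewhere.

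HSP90AA1 (chromosome 14, 102080742 to 102139749) encodes HSP90 alpha, the inducible cytosolic HSP90 and a client-holding chaperone of kinases and steroid receptors. It had 2747, 2550 and 2527 CPM in the T47D-TR libraries and 4081, 4140 and 4255 CPM in the T47D libraries. The groups lay far apart, with little spread in either, and its log2 fold change was -0.67 ± 0.04. Of the windows of its transcript 17.5% occurred in 5 other genes, most often HSP90AA2P (12.6%), so part of its reads may be placed elsewhere. HSP90AB1, its constitutive paralogue, is named here after its values were seen. It was also lower, at 2190 ± 93.7 CPM in T47D-TR and 3572 ± 12.2 CPM in T47D (log2 fold change -0.71 ± 0.04, edgeR adjusted p = 7.14e-09). HSP90AA1 therefore made up a like share of the counts of both, at 54.5%, 54.7% and 53.9% in T47D-TR and 53.3%, 53.8% and 54.3% in T47D, and these ranges overlapped. HSPA8 and HSP90AA1 together made up 81.6% ± 0.163 of the counts of the 10 genes in T47D-TR and 81.7% ± 0.231 in T47D.

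The partners that drive or reset the HSP70 cycle were lower by less than HSPA8. HSPH1 (chromosome 13, 31134973 to 31162388) encodes HSP110, which exchanges the nucleotide of HSP70 and helps to dissolve aggregates. It had 416, 380 and 316 CPM in the T47D-TR libraries, replicate 3 being lowest, and 757, 749 and 772 CPM in the T47D libraries, with a log2 fold change of -1.03 ± 0.12. DNAJB1 (chromosome 19, 14514769 to 14560391), an HSP40 that brings clients to HSP70 and stimulates its ATPase, had 138, 129 and 135 CPM in T47D-TR and 229, 236 and 237 CPM in T47D, with a log2 fold change of -0.80 ± 0.03. BAG3 (chromosome 10, 119651380 to 119677819), an exchange factor that routes clients of HSP70 to autophagy, had 72.4, 63.9 and 79.4 CPM in T47D-TR and 118, 119 and 116 CPM in T47D, with a log2 fold change of -0.71 ± 0.09. Per 100 HSPA8 counts, HSPH1 had 18.1 ± 2.9 in T47D-TR and 13.8 ± 0.19 in T47D, DNAJB1 had 6.55 ± 0.396 in T47D-TR and 4.24 ± 0.0954 in T47D, and BAG3 had 3.5 ± 0.237 in T47D-TR and 2.13 ± 0.0887 in T47D. Each of these ratios was higher in every T47D-TR library than in any T47D library. The ratios restate that HSPA8 was lower by more than these partners. HSF1, HSP90AA1, HSPB1 and HSPE1 were also lower by less than HSPA8, so this is not particular to the HSP70 cycle. Of the 10 genes, only HSPA1A and HSPA1B were lower by more.

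HSPB1 and HSPE1 belong to other chaperone families. HSPB1 (chromosome 7, 76302673 to 76304292) encodes HSP27, a small heat shock protein that holds unfolded proteins without ATP. It had 211, 196 and 229.6 CPM in the T47D-TR libraries and 316, 337 and 335 CPM in the T47D libraries, with a log2 fold change of -0.64 ± 0.07. Of its windows 11.4% occurred in HSPB1P1. HSPE1 (chromosome 2, 197500379 to 197503449) encodes HSP10, the lid of the mitochondrial chaperonin HSP60. It had 135, 125 and 139 CPM in T47D-TR and 191, 192 and 199 CPM in T47D, with a log2 fold change of -0.54 ± 0.05. For both genes the lowest T47D library lay well above the highest T47D-TR library. Of the HSPE1 windows 27.2% occurred in other genes, and 16.0% in the readthrough gene HSPE1-MOB4, so its level is uncertain to that extent.

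**Figure D3:**
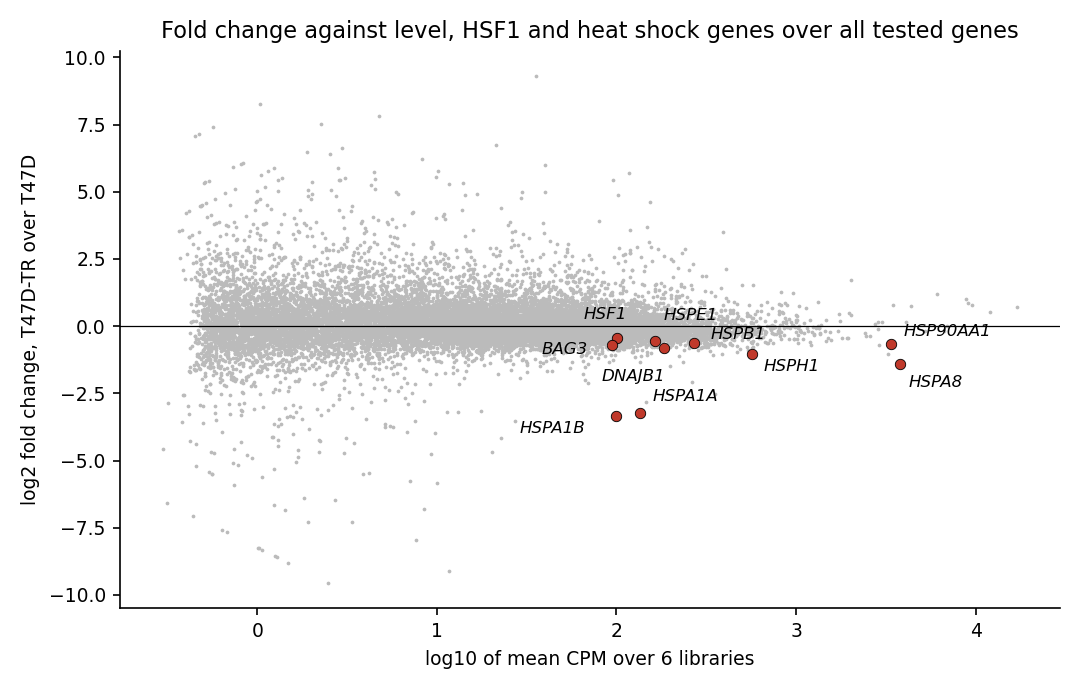
Log2 fold change, T47D-TR over T47D, against the log10 of mean CPM over the 6 libraries; grey points are all 15961 tested genes and red points the 10 genes. All 10 lie under 0, from HSF1 at -0.44 to HSPA1B at -3.35, and HSPA8 and HSP90AA1 are among the most abundant transcripts measured.

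To compare levels between genes, CPM were divided by the length of the exons in GENCODE release 29, since the authors' gene models are not stated. On this scale HSPA8 stood first in both groups, at 761 ± 70.5 CPM per kilobase in T47D-TR and 2046 ± 57.2 in T47D, followed by HSP90AA1 at 648 in T47D-TR (627.6 to 682.1 over libraries) and 1033 ± 22.0 in T47D. HSPB1 came next at 200.01 ± 16.0 in T47D-TR and 311 ± 10.8 in T47D, then HSPE1 at 129 ± 6.86 in T47D-TR and 188 ± 4.45 in T47D, and HSPH1 at 65.3 ± 8.9 in T47D-TR and 133.9 ± 2.09 in T47D. The order below it differed between the groups. In T47D-TR it ran DNAJB1 (54.8 ± 1.91), HSF1 (38.1 ± 1.19), BAG3 (28.0 ± 3.01), HSPA1A (10.5 ± 4.59) and HSPA1B (7.09 ± 3.45), and in T47D it ran HSPA1A (98.0 ± 1.79), DNAJB1 (95.6 ± 1.84), HSPA1B (71.4 ± 1.93), HSF1 (51.9 ± 1.9) and BAG3 (45.7 ± 0.673). On this scale the inducible HSP70 genes were the lowest of the 10 in T47D-TR, under HSF1, and in T47D they stood above HSF1. Of the windows of HSPA1A and HSPA1B, 72.6% and 73.5% occurred in other genes, and of those of HSF1 0%. If shared reads were not counted, the levels of the pair are too low. Their place among the 10 in T47D-TR is therefore uncertain. The libraries of HSPH1 and DNAJB1 and of HSPA1A and HSPA1B overlapped in T47D-TR, and those of HSPA8 and HSP90AA1 almost touched there, at a lowest HSPA8 value of 682.3 and a highest HSP90AA1 value of 682.1. In T47D the ranges of HSPA1A and DNAJB1 almost touched too, at a lowest HSPA1A value of 96.92 and a highest DNAJB1 value of 96.88.

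Within T47D-TR the genes did not share 1 order of the libraries. Replicate 2 was lowest for 8 of the 10 genes, and replicate 3 was lowest for HSPH1 and HSP90AA1. Replicate 3 was highest for 6 genes, HSF1, HSPA1A, HSPA1B, HSPB1, HSPE1 and BAG3, and replicate 1 for DNAJB1, HSP90AA1, HSPA8 and HSPH1. In log2 CPM, HSPA1A lay 0.81 under the mean of its group in replicate 2 and 0.59 above it in replicate 3, and HSPA1B 0.79 under and 0.71 above. HSPH1 went the other way in replicate 3, at 0.22 under the mean. Among the other 7 genes the deviation of largest size in T47D-TR was that of BAG3 in replicate 2, 0.16 under the mean.

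**Figure D4:**
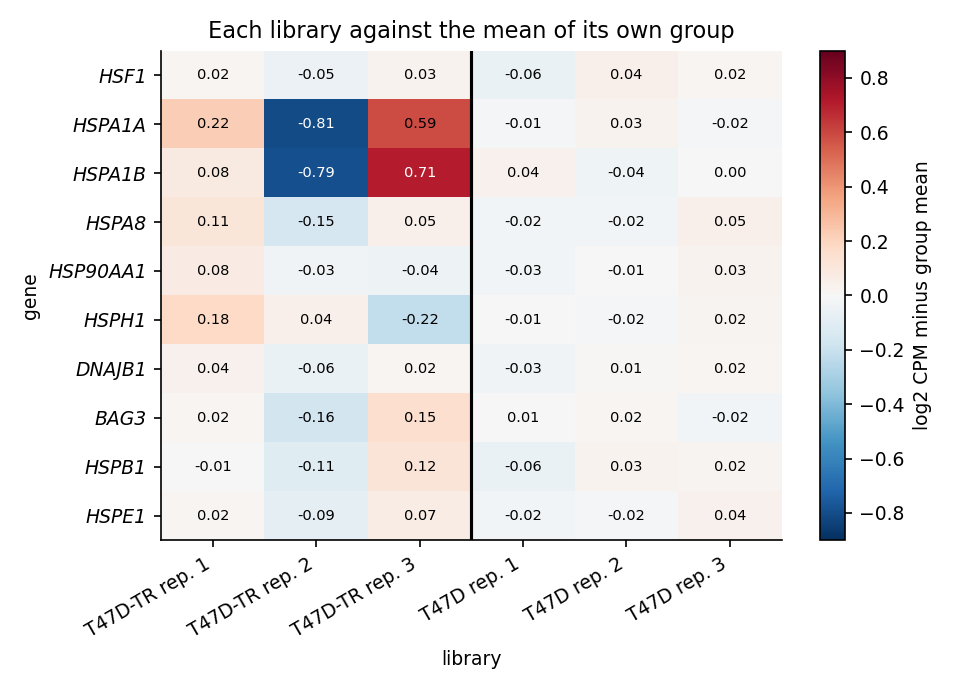
Log2 CPM of each gene (rows) in each library (columns) minus the mean of its own group, with T47D-TR left of the line and T47D right of it. HSPA1A and HSPA1B differ between T47D-TR libraries by far more than the other genes, and the T47D columns are close to 0.

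Outside these 10 genes, 102 genes of the pathway in 8 lists were read from the same fit, of which 98 were in the table and 92 were tested. Of the 92, 54 were called lower, 22 higher and 16 not, with a median log2 fold change of -0.20, against 30.5% lower and 32.5% higher of all tested genes. The lists were drawn up with earlier results of these data known, so these counts describe them and show nothing particular to them. In the heat shock factor family, HSF2 was not called and HSF4 was higher. HSF2, which can pair with HSF1, had 26.1, 28.2 and 20.8 CPM in T47D-TR and 25.3, 25.6 and 26.9 CPM in T47D, so that the groups overlapped (log2 fold change -0.05 ± 0.13, edgeR adjusted p = 0.701). HSF4, best known from the lens, was higher, at 6.2 ± 0.265 CPM in T47D-TR and 3.95 ± 0.643 CPM in T47D (log2 fold change 0.65 ± 0.13, edgeR adjusted p = 0.00203). HSF5 was not analysed here.

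Partners and regulators of HSF1 went both ways, with 6 of 15 lower, 6 higher and 3 not called (median -0.08, but -0.02 without T47D-TR replicate 3 and -0.04 without T47D replicate 3). VCP, an ATPase that extracts ubiquitinated proteins and sits with HDAC6 and HSP90 in a complex that holds HSF1, fell to 222 ± 15.3 CPM in T47D-TR, against 385 ± 3.39 CPM in T47D. HDAC6, the deacetylase of that complex that binds ubiquitin, rose to 11.6 ± 1.46 CPM, against 8.25 ± 0.477 CPM in T47D. PLK1, a mitotic kinase that also phosphorylates HSF1, was lower (log2 fold change -0.78 ± 0.10), and IER5, a target of HSF1 that promotes its dephosphorylation, was higher (0.45 ± 0.05).

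Of 14 tested genes of 16 further heat-inducible ones, 11 were lower, 1 was higher and 2 were not called (median -0.53). HMOX1, which encodes the haem-degrading enzyme heme oxygenase 1, had 18.2, 13.8 and 31.1 CPM in T47D-TR and 65.6, 66.3 and 67.7 CPM in T47D (log2 fold change -1.67 ± 0.34, edgeR adjusted p = 7.74e-06). In T47D-TR its replicate 2 was lowest and replicate 3 highest, as for HSF1, HSPA1A, HSPA1B, HSPB1, HSPE1 and BAG3. How many of all genes have this order was not counted. HSPA4L, an HSP110 relative of HSPH1, had 36.4, 33.3 and 33.0 CPM in T47D-TR and 99.4, 97.7 and 99.1 CPM in T47D (log2 fold change -1.53 ± 0.04, edgeR adjusted p = 2.84e-10). The gene called higher was RGS2, a regulator of G protein signalling, whose groups overlapped (log2 fold change 0.69 ± 0.42, edgeR adjusted p = 0.03). It lost its call in 6 of the 12 alternatives, at adjusted p of 0.0811 to 0.25: with DESeq2, with voom, and in edgeR without T47D-TR replicate 1 or 2 or T47D replicate 1 or 2. HSPA6, the most strictly inducible HSP70 gene, was left out by the filter, with 0, 3 and 4 counts in T47D-TR and 8, 11 and 12 in T47D.

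Cochaperones of HSP70 and HSP90 were lower in 16 of 19 genes and higher in 2, with a median of -0.21. FKBP4, an immunophilin of HSP90 complexes with steroid receptors, had 379 ± 23.4 CPM in T47D-TR and 708 ± 12.3 CPM in T47D (log2 fold change -0.90 ± 0.05, edgeR adjusted p = 7.86e-09), and STIP1, which bridges HSP70 and HSP90, a log2 fold change of -0.57 ± 0.05. The 2 that rose were BAG5 (0.49 ± 0.05) and BAG4 (0.29 ± 0.03), both of the BAG family to which BAG3 belongs. Subunits of TRiC, the cytosolic chaperonin of actin and tubulin, were lower in 7 of 8 genes (median -0.41), led by TCP1 and CCT5, each at a log2 fold change of -0.70.

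The remaining lists were mixed. Of 14 chaperones of the mitochondria and the endoplasmic reticulum 5 were lower and 3 higher (median -0.07, but -0.04 without T47D-TR replicate 1). HSPD1, which encodes HSP60, the partner of HSP10, had a log2 fold change of -0.49 ± 0.04, close to the -0.54 of HSPE1, and HSPA5, which encodes the endoplasmic reticulum HSP70 BiP, one of 0.24 ± 0.05. The mitochondrial exchange factor genes GRPEL1 and GRPEL2 went opposite ways, at -0.61 ± 0.05 and 1.07 ± 0.15. Of 7 tested paralogues of the members 3 were lower and 4 higher (median 0.14). With no filter on low counts, which adds genes to this list, the median was -0.22. The number higher was 2 without any one of T47D-TR replicates 1 and 2 and T47D replicates 1 and 2, and with library size alone, and the number lower was 1 at a mean CPM of at least 5. HSPA2, an HSP70 best known from the testis, had 12, 7 and 6 counts in T47D-TR and 77, 73 and 70 in T47D, HSPA1L had a log2 fold change of -1.21 ± 0.46, with edgeR adjusted p = 0.0529 without T47D replicate 2, and HSPA12A and HSPA13 had 0.79 ± 0.10 and 0.59 ± 0.06. Of the 4 called higher, HSPA14 and HSPB11 had overlapping groups. Of 13 other cytosolic DNAJ genes 6 were lower and 5 higher (median -0.12, but -0.06 without T47D-TR replicate 1 and -0.18 without T47D-TR replicate 3). DNAJA4 had 5, 1 and 2 counts in T47D-TR and 318, 332 and 307 in T47D, DNAJC6 had a log2 fold change of -0.77 ± 0.22, and DNAJB2 and DNAJC5 had 0.77 ± 0.06 and 0.47 ± 0.07.

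**Figure D5:**
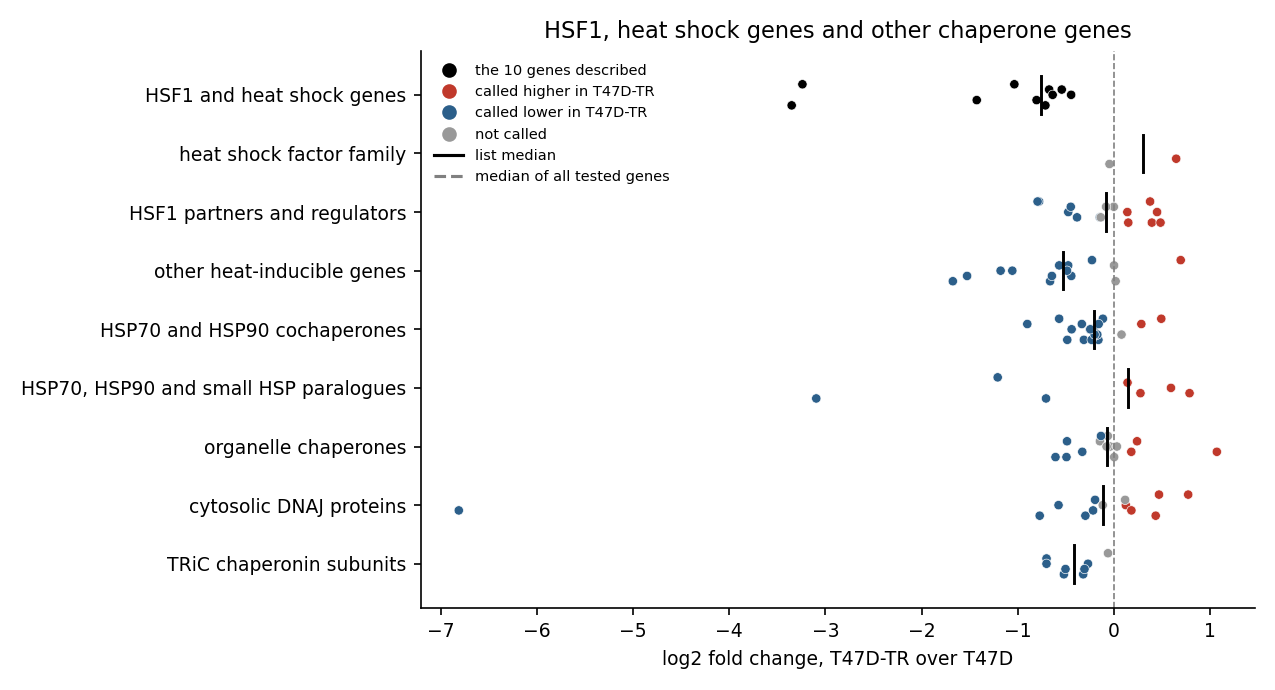
Log2 fold changes, T47D-TR over T47D, of the 10 genes (black, top row) and of the tested genes of 8 lists, with red for genes called higher, blue for lower and grey for not called; thick lines are medians and the dashed line is the median of all 15961 tested genes. The further heat-inducible genes (median -0.53) and the TRiC subunits (-0.41) lie mostly left of the dashed line, and the organelle chaperones (-0.07) on both sides.

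The letters of the heat shock element were set against these fold changes in genes other than the 10. Of the listed genes with a promoter entry, 19 of the 22 with 2 units were called lower and 1 higher (median log2 fold change -0.54), and of the 59 without them 28 were lower and 18 higher (median -0.12). Across all 10482 tested genes with an entry, 31.9% of the 1426 with 2 units and 32.9% of the 9056 without were lower, with medians of 0.01 and -0.00. Runs of 3 units stood in 49 of these genes, of which 20 were lower and 11 higher (median -0.12). Of these, 6 were listed genes, 5 of them lower, and among the 43 unlisted ones 15 were lower and 11 higher (34.9% lower, median -0.07). The 2-unit letters were spread unevenly over the lists. Of genes with an entry, they stood in 10 of 13 further heat-inducible genes and 3 of 7 TRiC genes, the lists with the lowest medians. They stood in 1 of 14 HSF1 partners, 2 of 13 organelle chaperones and 4 of 10 paralogues. Letters and list cannot be told apart among the listed genes. The difference between listed and unlisted genes was not tested, and the lists were chosen with the data known.

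Genes next to the 10 were read in the same way, as the nearest other gene of the table on each side in RefSeq. Of 18 such genes 17 were tested, and 11 were lower and 1 higher (median -0.44). Of all tested genes 30.5% were lower and 32.5% higher (median 0.00). Some of the neighbours are chaperone genes of the lists above or overlap one of the 10 genes, so nothing is read from these counts. HSPD1 starts 105 bases from HSPE1, in the opposite orientation, so the pair shares a promoter region. BOP1, a ribosome biogenesis gene that lies 166 bases from HSF1, had 73.0 ± 2.12 CPM in T47D-TR and 110.0 ± 2.87 CPM in T47D (log2 fold change -0.59 ± 0.03, edgeR adjusted p = 4.19e-07), and DGAT1, an enzyme gene of triglyceride synthesis whose end overlaps that of HSF1, had a log2 fold change of -0.37 ± 0.08. The libraries came from a directional kit, but the strand setting of the counting is not stated, so reads of this overlap cannot be assigned with certainty. HSPA1L, 260 bases from HSPA1A, is one of the paralogues above. It had few counts, 16, 10 and 26 in T47D-TR and 35, 56 and 33 in T47D. Whether some of these are reads of HSPA1A or HSPA1B was not tested. HSPE1-MOB4 (-0.44 ± 0.05) and SNORD14E, a small RNA gene inside HSPA8 (-2.06 ± 0.19), share sequence or place with a member, so reads of each pair cannot be told apart with certainty. Of the other neighbours, B3GALTL (-0.68 ± 0.05), YWHAG (-0.45 ± 0.03), GIPC1 (-0.18 ± 0.04), SRRM3 (-0.60 ± 0.18) and LOC105378512 (-0.58 ± 0.08) were lower, and C11orf63 was higher (1.07 ± 0.22). WDR20 overlaps the span of HSP90AA1 and TECR that of DNAJB1, so the same limit on reads holds for both. WDR20, TECR, C6orf48, DYNC1H1 and INPP5F were not called. Of these, C6orf48 was called lower without T47D-TR replicate 3 (edgeR adjusted p = 0.0208) and INPP5F higher without T47D replicate 1 (edgeR adjusted p = 0.0354). ALOX5AP was under the filter on low counts. SRRM3 lost its call with DESeq2 (adjusted p = 0.08) and in 3 of the fits that leave out 1 library (edgeR adjusted p = 0.0634 to 0.105, namely T47D-TR replicate 2 and T47D replicates 1 and 3).

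Profiles over the 6 libraries were compared by the Euclidean distance of log2 CPM centred on each gene's mean, among 9826 other tested genes with a mean of at least 10 CPM. Nearest to HSPA1A and HSPA1B summed was AHRR, the repressor of the aryl hydrocarbon receptor, at a distance of 0.445, with 4.4 ± 1.34 CPM in T47D-TR and 50.2 ± 2.6 CPM in T47D. Then came ACTL8 (0.871), DUSP2 (1.15), ID2 (1.27) and ID3 (1.34). In T47D-TR, ACTL8, DUSP2 and ID2 had means of 2.57, 2.25 and 2.41 CPM. Like AHRR, they passed the limit of 10 CPM, a mean over all 6 libraries, only through T47D. Within T47D-TR, AHRR was lowest in replicate 2 and highest in replicate 3, as were HSPA1A and HSPA1B, and the others were not. For these others the likeness is mainly the difference between the groups. Nearest to HSF1 were DLEU1 (0.0245), NDUFB9 (0.0421), NT5C3B (0.0559), PRDX4 (0.0595) and SLC25A5 (0.0597), each lower in T47D-TR by a log2 fold change of 0.41 to 0.45 in size. With the difference between the groups as the main part of every profile, these distances are a description of 6 libraries.

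The authors' deposited table gave the same order of sizes on its own scaling. In it the linear fold change was 0.106 for HSPA1A, 0.0987 for HSPA1B, 0.37 for HSPA8 and 0.731 for HSF1.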

How the data were processed

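Poly(A)-selected RNA of T47D-TR and T47D was sequenced in 3 libraries each. The submitters' processing notes name HISAT2 2.1.0, the build GRCh38 and DESeq. The counting tool, strand setting and annotation are not given in the sources. Values in the deposited table are whole-number counts, not FPKM as its name has it. Beside them the authors' table has group means on a normalized signal scale, their ratio as a linear fold change, its log2 value, and a p-value with a false discovery rate.

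Counts were filtered with filterByExpr (minimum count 10, minimum total 15), scaled with TMM and compared with the quasi-likelihood test of edgeR 4.0.16 in R 4.3.3, fitted over all 15961 tested genes. Calls are 2-sided, with p-values adjusted by Benjamini-Hochberg and a threshold of 0.05. CPM use TMM-scaled library sizes and are given as mean ± SD, n = 3. Log2 fold changes have T47D-TR on top, and their SE comes from log2 CPM with a prior count of 2, which makes it too small for low counts. At this depth 3 counts are 0.153 to 0.178 CPM, a floor for counting error only. No sample column was left unused. The plan named the 10 genes, the heat shock factor family, up to 2 called genes at each end of each other list, the neighbours and 5 genes nearest in profile. HSPA6, RGS2, HSP90AB1, HSPA14 and HSPB11 stand outside that rule and were chosen after their values were seen. The members and lists were chosen with earlier results of these data known. Promoters come from RefSeq GRCh38.p14, whose chromosomes have the coordinates of GRCh38. The fits were tested on simulated data, and alternatives used DESeq2 1.42.0 and limma 3.58.1.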

Additional observations from a re-analysis of the deposited data

How the results depend on the processing

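The log2 fold changes of the 10 genes were below 0, and edgeR, DESeq2 or voom called each lower, in all 12 alternatives tried: DESeq2, library size alone, voom with quantile normalization, no filter, a mean CPM of at least 5, a replicate block and leaving out each library. Their median was -0.80 to -0.71 over the leave-one-out fits. HSPA1A lay at -3.54 without T47D-TR replicate 3 and at -2.92 without T47D-TR replicate 2, and HSPA1B at -3.75 and -3.03. Voom moved single genes by a median of -0.11, and the median of the 10 genes was then -0.75. All genes called lower numbered 4867, with 5186 higher, a split of 51.6% higher that became 43.0% with voom (4361 higher and 5789 lower) and 47.7% with library size alone. Medians of single lists that moved by over 1.5 times with another scaling or filter were those of the HSF1 partners (-0.12 with voom), the organelle chaperones (-0.11 with library size alone), the paralogues (-0.22 with no filter, 0.29 at a mean CPM of at least 5) and the heat shock factor family (0.15 with voom, against 0.30). The longer run of 3 units stood in 2 of the 6 promoters with 2 units. Neighbour genes called higher numbered 0 at a mean CPM of at least 5, where C11orf63 was not tested, and 1 to 2 when 1 library was left out. HSF2, not called, changed sign without T47D-TR replicate 3 (log2 fold change 0.068, with a range of -0.137 to 0.068 when 1 library was left out). DYNC1H1, not called, changed sign with library size alone (-0.0144) and without T47D replicate 3 (-0.00932, with a range of -0.00932 to 0.0565). HSPA1L lost its call without T47D replicate 2 (adjusted p = 0.0529). The cause of these changes was not tested. Replicate numbers were not used as pairs. Deviations of same-numbered libraries of the 2 groups correlated at -0.021 to -0.005, and those of differently numbered ones at -0.005 to 0.022. With 3 libraries per group, this cannot show whether same-numbered libraries were handled together. With the replicate block 5127 genes were called higher and 4827 lower, and 10 of the 10 genes lower. Depth limits genes near 3 counts, such as ESR1 in both groups and HSPA6 in T47D-TR.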
